A study of Mus musculus with 7 samples.

Results

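Kidneys of 4 mice with streptozotocin diabetes, whatever their glucose lowering, were compared as 1 group with kidneys of 3 nondiabetic mice. These 7 libraries are all the libraries of the series. The wild-type C57BL/6 mice were, per the labels, males of 8 to 10 weeks at the start, while the methods of the study speak of both sexes. The 3 controls (C, replicates 2, 8 and 9) received neither the toxin nor the drug. All 4 diabetic mice received streptozotocin, which kills the insulin-producing beta cells of the pancreas, at 60 mg/kg on 5 days in a row. The 2 DM-22 mice (replicates 1 and 2) stayed hyperglycemic for 22 weeks. The 2 DM+SGLT2i mice (replicates 1 and 2) had 16 weeks of hyperglycemia and then 6 weeks of dapagliflozin at 25 mg/kg in the drinking water, an inhibitor of the glucose carrier SGLT2 that lowers blood glucose through the urine. As a model this is a loss of insulin by a toxin, and the RNA came from whole kidney tissue, so that fewer cells of a type and less RNA per cell cannot be told apart. Neither the labels nor the methods give the hour at which the kidneys were taken.

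The comparison asks which transcripts set diabetic kidneys apart both with and without glucose lowering. A gene was said to separate the groups when its 4 diabetic values were all above, or all below, its 3 control values, and its gap is the distance between the nearest diabetic and the nearest control library. Values are CPM (read counts scaled to a common total and normalized between libraries), and gaps and fold changes are on the scale of log2(CPM + 0.5).

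Several genes that separated the groups belong to the circadian clock, a loop of transcription factors present in nearly all kidney cells. Arntl (also called Bmal1) pairs with Clock or Npas2 and activates the Per, Cry and Nr1d genes, whose products in turn repress the activators, so that both arms peak at opposite times of day. The loop drives daily rhythms of many transporters and enzymes in the kidney. Other separating genes handle fatty acids and small metabolites, and some belong to the immediate early genes, which cells switch on within minutes of a stimulus.

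The 7 libraries held between 46456125 and 56541594 reads on the listed genes. Defining kidney markers were present in all of them, for example the proximal tubule carrier Slc34a1 at 2841 to 9452 CPM and the thick ascending limb gene Umod at 2337 to 6933 CPM. Control replicate 2 stood apart from the other controls. Its correlation with control replicates 8 and 9 over the tested genes was 0.939 and 0.935, against 0.991 between replicates 8 and 9 and 0.985 between it and DM+SGLT2i replicate 2. The summed level of 25 tubular injury genes was 8334 CPM in control replicate 2, 1702 and 1515 CPM in control replicates 8 and 9, and between 2925 and 4601 CPM in diabetic libraries. A similar order held for 23 macrophage genes, at 936, 248 and 257 CPM in controls and 343 to 567 CPM in diabetic libraries. Control replicate 9 was high in immediate early genes, at 5092 CPM in sum against 517 to 816 CPM in the 6 other libraries. Control replicate 2 carries a control label and was used as one, and whether the label is right or the kidney was injured was not tested, which touches every separation over all 7 libraries. Because of these libraries, results are given with all 3 controls first, and for some of them also without the library concerned.

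Of 13976 genes tested, 183 separated the groups with higher values in diabetic kidneys (1.31%) and 193 with lower values (1.38%). The libraries can be split into groups of these sizes in 35 ways. Labels set at random would therefore separate about 1 gene in 35 in each direction. Both shares were below 1 in 35, so the counts do not exceed what such labels would give. Most of the 376 separations were narrow. The median gap of the 376 genes was 0.05, 285 gaps were under 0.1, and 66 gaps were larger than 2 counting errors of the nearest pair of libraries. A gap of at least 0.5 was found for 3 genes that were higher, Arntl, Ndrg1 and Acnat2 (0.0215%), and for 3 that were lower, Dbp, Ccn1 and 1600010M07Rik (0.0215%). The median fold change was 0.25 for the higher and -0.33 for the lower genes, and 16 of the 376 had a change of at least 1 on the log2 scale. Among the 376 genes, 354 code for proteins.

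**Figure D1:**
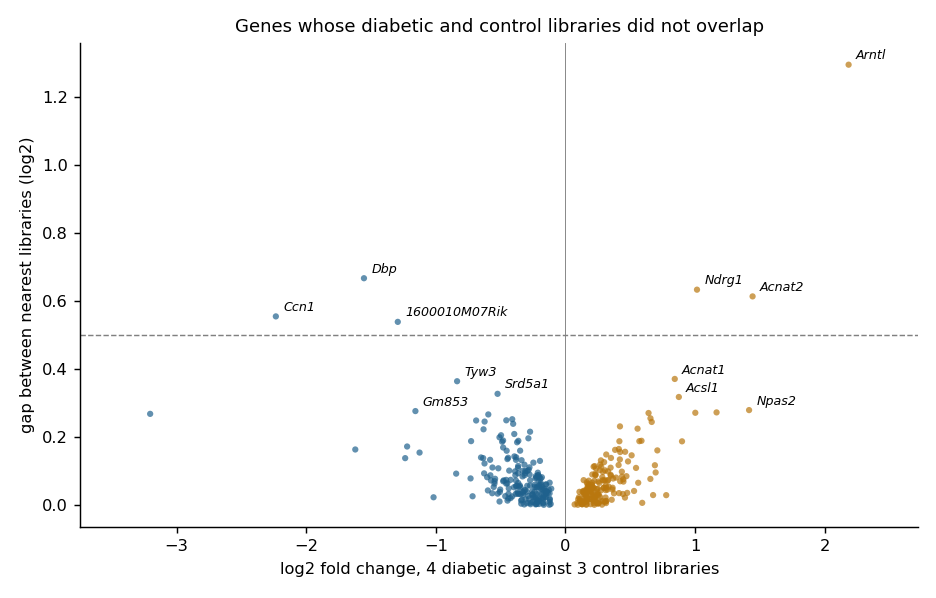
Each point is 1 of the 376 genes whose diabetic and control libraries did not overlap, with the log2 fold change of diabetic against control kidneys on the horizontal axis and the gap between the nearest libraries (log2) on the vertical axis. Orange points are higher and blue points lower in diabetic kidneys, and 6 genes lie above the dashed line at a gap of 0.5.

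No gene passed the test across all genes. The limma test, adjusted over 13976 genes, called 0 genes higher and 0 lower in diabetic kidneys, with a smallest adjusted p of 0.993. At an unadjusted p under 0.05 it counted 95 genes higher (0.680%) and 179 lower (1.28%), and limma with voom weights on the reads counted 87 and 149, with 0 calls after adjustment. For a single gene, the exact two-sided permutation test of 4 against 3 libraries cannot give a p below 0.0571. The separations that follow are therefore descriptions of these 7 libraries.

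Control replicate 2 overlapped the diabetic libraries in most of the genes that separated without it. Without it, 2106 genes separated with higher values (15.1%) and 2907 with lower values (20.8%). In 91.3% of the former and 93.4% of the latter, control replicate 2 lay within or beyond the diabetic libraries. It was also the nearest control for 211 of the 376 genes that separated all 7 libraries. The genes described here are those for which even this control stayed on the side of the other controls.

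Arntl, the core activator of the clock, had the widest separation. It was at 1.21, 1.77 and 1.62 CPM in control replicates 2, 8 and 9, at 6.48 and 19.4 CPM in DM-22 replicates 1 and 2, and at 5.07 and 8.69 CPM in DM+SGLT2i replicates 1 and 2 (the same order of libraries is used below). The highest control was thus below the lowest diabetic library by a gap of 1.30, and the log2 fold change was 2.18 (SE 0.41), or 2.06 without control replicate 2. The gene lies at chr7:113207465-113314126 on the plus strand of GRCm38. Npas2, the partner of Arntl that can replace Clock, was at 1.61, 3.37 and 2.46 CPM in controls, at 4.19 and 13.2 CPM in DM-22 and at 6.65 and 7.24 CPM in DM+SGLT2i kidneys. Its log2 fold change was 1.42 (SE 0.37) with a gap of 0.28. Nfil3, a repressor that binds the same DNA element as the activator Dbp, was at 3.63, 3.31 and 2.99 CPM in controls, at 5.29 and 13.9 CPM in DM-22 and at 4.48 and 7.61 CPM in DM+SGLT2i kidneys (log2 fold change 1.002, SE 0.35). In all of these genes DM-22 replicate 2 was the highest library. Clock itself overlapped, at 87.7 to 95.2 CPM in controls and 91.2 to 118 CPM in diabetic kidneys. In all, 3 of 6 tested clock genes that peak with Arntl separated, all higher (50%, beside 1.31% of all genes). The median log2 fold change of the 6 was 0.59 against 0.00 over all genes tested.

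Of 11 tested clock genes that peak opposite to Arntl, 3 separated, all lower (27.3%, beside 1.38% of all genes). Dbp, an output of the clock that activates detoxification and transport genes, was at 168, 225 and 220 CPM in controls, at 83.3 and 37.6 CPM in DM-22 and at 106 and 66.6 CPM in DM+SGLT2i kidneys. Every diabetic library was below every control by a gap of 0.67, and the log2 fold change was -1.56 (SE 0.33), or -1.69 without control replicate 2. Dbp lies at chr7:45705088-45710203 on the plus strand. Nr1d2, a nuclear receptor that represses Arntl, was at 112, 162 and 171 CPM in controls, at 106 and 65.4 CPM in DM-22 and at 105 and 81.1 CPM in DM+SGLT2i kidneys (log2 fold change -0.73, SE 0.22). Per2, a repressor of the Arntl complex, was at 16.1, 34.1 and 47.3 CPM in controls, at 15.8 and 14.5 CPM in DM-22 and at 15.9 and 11.8 CPM in DM+SGLT2i kidneys (log2 fold change -1.02, SE 0.33). The gap of Per2 was only 0.02, below 1 counting error, it closed when the libraries were scaled by their totals alone, and without control replicate 2 it was 1.08. The log2 fold change was below 0 for all 11 genes of this arm, with a median of -0.65. Tef, a relative of Dbp, missed separation by the single library DM+SGLT2i replicate 1 at 270 CPM against 258 CPM in control replicate 2, with a log2 fold change of -0.67 (SE 0.22). Nr1d1, the close relative of Nr1d2, overlapped widely, at 122 to 138 CPM in controls and 57.1 to 194 CPM in diabetic kidneys. Without control replicate 2, 4 genes of the Arntl arm and 7 of the opposite arm separated, in the same directions. In this setting 15.1% of all genes separated higher and 20.8% lower.

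**Figure D2:**
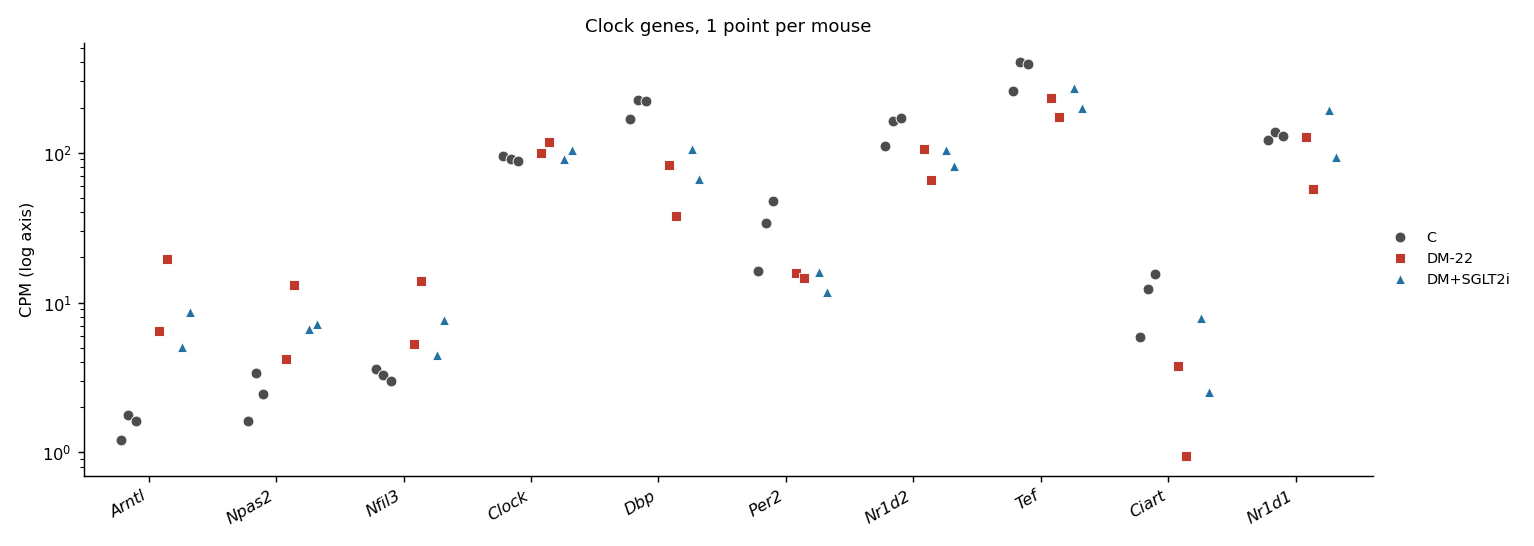
Each point is the CPM of 1 mouse on a log axis for 10 clock genes, with circles for controls, squares for DM-22 and triangles for DM+SGLT2i mice. Arntl, Npas2 and Nfil3 are higher and Dbp, Per2 and Nr1d2 lower in all 4 diabetic mice than in all 3 controls, while Clock, Tef, Ciart and Nr1d1 overlap.

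Members of both arms can be bound by nuclear receptors such as those of the Nr1d family, whose core DNA element is AGGTCA. The 250 bases before the start were searched on both strands in RefSeq promoters (GRCm38.p6), which were found for Arntl, Npas2, Nfil3, Dbp, Nr1d2 and for 10768 of the tested genes. Among 8 genes searched (these 5 with Acnat2, Ccn1 and 1600010M07Rik), AGGTCA was present in Nfil3 and Nr1d2, which moved in opposite directions, against 11.2% of all 13793 promoters. The stretches are shown because they hold the only match of a clock element among these genes. Both genes lie on the minus strand, at chr13:52981040-52981078 and chr14:18239151-18239210, the bases run 5′ to 3′ along the gene, and capitals mark the element, which in Nfil3 reads on the opposite strand as TGACCT. In Nfil3 it spans bases 12 to 7 before the start and in Nr1d2 bases 77 to 72.
Nfil3: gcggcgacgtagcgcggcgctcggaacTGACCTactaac
Nr1d2: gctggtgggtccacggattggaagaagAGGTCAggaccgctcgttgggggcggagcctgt
CACGTG, the E-box bound by Arntl with its partner, was found in 7.95% of all promoters and in none of the 8. The letters TGANTCA (4.79% of all) and TTGCATCA (0.544%) were likewise not in these windows, and TGACNNNGC (11.65% of all) was found in Ccn1.

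Genes of fatty acid handling were the next group. Acnat2, of a family of peroxisomal acyltransferases that join acyl groups to amino acids, was at 41.0, 64.5 and 55.7 CPM in controls, at 99.0 and 228 CPM in DM-22 and at 139 and 139 CPM in DM+SGLT2i kidneys. The groups were apart by a gap of 0.61, and the log2 fold change was 1.44 (SE 0.28). Its neighbour Acnat1 was at 28.8, 36.6 and 27.6 CPM in controls, at 47.5 and 60.2 CPM in DM-22 and at 62.5 and 53.5 CPM in DM+SGLT2i kidneys (log2 fold change 0.84, SE 0.15). Acnat2 (chr4:49379840-49408151) and Acnat1 (chr4:49447105-49473912) are related copies on the same strand, so that reads shared between them may have been split. Acsl1, which couples long fatty acids to coenzyme A, was at 172, 242 and 199 CPM in controls, at 458 and 416 CPM in DM-22 and at 331 and 301 CPM in DM+SGLT2i kidneys. Each diabetic library was above each control, the 2 DM-22 libraries being the highest, and the log2 fold change was 0.87 (SE 0.19). Of 145 tested genes annotated in the deposited table with fatty acid metabolic process, a term chosen after the values were seen, 7 separated higher and 0 lower, against 1.34% and 1.32% of all 13309 annotated genes. Scaling by library totals alone left 4 higher and 1 lower. With control replicate 2 left out, the count was 33 higher (22.8%) and 15 lower (10.3%), beside 15.1% and 20.8% of all genes. The list of 33 genes of fatty acid oxidation and ketone bodies held no separating gene, with a median log2 fold change of 0.08.

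Carriers and stress genes also separated. Ndrg1, a protein induced by low oxygen and differentiation, was the most abundant of the widely separated genes. It was at 1456, 1714 and 1747 CPM in controls, at 2710 and 3770 CPM in DM-22 and at 3482 and 3341 CPM in DM+SGLT2i kidneys. This was a gap of 0.63 and a log2 fold change of 1.02 (SE 0.22), or 0.93 without control replicate 2, at chr15:66929318-66969640 on the minus strand. Of 19 tested hypoxia targets, Ndrg1 and Epas1 (the oxygen-sensing factor HIF-2 alpha, log2 fold change 0.45, SE 0.15) separated, both higher. That was 10.5% of the list, beside 1.31% of all genes, and the median of the 19 was 0.02. Slc16a1, the lactate and ketone body carrier MCT1, was at 25.4, 24.4 and 24.6 CPM in controls, at 30.8 and 98.8 CPM in DM-22 and at 59.3 and 55.5 CPM in DM+SGLT2i kidneys (log2 fold change 1.17, SE 0.34). The controls were close together and the diabetic libraries were not. Slc43a2, a carrier of large neutral amino acids, was at 267, 263 and 216 CPM in controls, at 322 and 398 CPM in DM-22 and at 450 and 387 CPM in DM+SGLT2i kidneys (log2 fold change 0.64, SE 0.16).

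Hmox1, the heme-degrading enzyme induced by the oxidant sensor NRF2, was at 47.0, 33.4 and 39.4 CPM in controls, at 67.5 and 78.8 CPM in DM-22 and at 51.0 and 62.3 CPM in DM+SGLT2i kidneys (log2 fold change 0.69, SE 0.18). Of 38 tested NRF2 targets and glutathione enzymes, Hmox1, the glutathione transferase Gsta3 (log2 fold change 0.31, SE 0.12) and the organic anion exporter Abcc4 (0.78, SE 0.28) separated, all higher. That was 7.9% of the list, beside 1.31% of all genes. The log2 fold change was above 0 for 36 of the 38, with a median of 0.30. Abcc4 no longer separated when the libraries were scaled by their totals alone. Tnfaip2, a gene induced by tumor necrosis factor, was at 36.1, 34.4 and 29.98 CPM in controls, at 53.2 and 58.3 CPM in DM-22 and at 43.2 and 58.7 CPM in DM+SGLT2i kidneys (log2 fold change 0.66, SE 0.14). Sox18, a transcription factor of endothelial cells, was the single separating gene of 22 endothelial genes (4.5%, beside 1.31% of all genes). It had a log2 fold change of 0.70 (SE 0.18) and a gap of 0.10. The matrix metalloproteinase Mmp15 (0.90, SE 0.24) and Fyco1, an adaptor for the transport of autophagosomes (0.71, SE 0.19), completed the 12 higher genes with the smallest p.

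**Figure D3:**
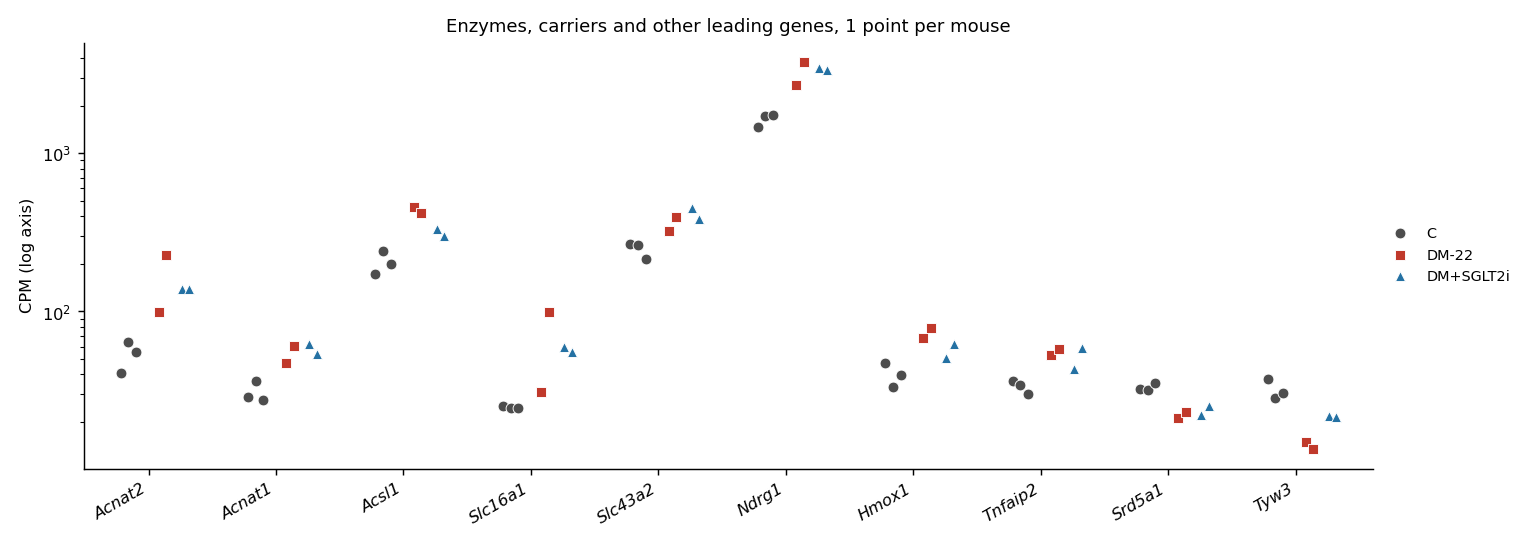
Each point is the CPM of 1 mouse on a log axis for enzymes, carriers and other genes with wide gaps or small p, with circles for controls, squares for DM-22 and triangles for DM+SGLT2i mice. The first 8 genes are higher and Srd5a1 and Tyw3 lower in all 4 diabetic mice than in all 3 controls.

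Among the genes that were lower, Srd5a1, the steroid 5-alpha-reductase that makes dihydrotestosterone, had little spread in either group. It was at 32.5, 31.9 and 35.2 CPM in controls, at 21.1 and 23.1 CPM in DM-22 and at 22.3 and 25.4 CPM in DM+SGLT2i kidneys (log2 fold change -0.52, SE 0.11, and -0.54 without control replicate 2). The 10 androgen-induced kidney genes held no separating gene, which a list of this size may do at the shares of all genes. Their summed level was 3320 CPM in control replicate 2 against 26066 and 25922 CPM in the other controls. In diabetic libraries it was 8491 to 29439 CPM. Tyw3, an enzyme of transfer RNA modification, was at 37.3, 28.4 and 30.3 CPM in controls, at 15.0 and 13.4 CPM in DM-22 and at 21.96 and 21.5 CPM in DM+SGLT2i kidneys (log2 fold change -0.84, SE 0.21). The antisense RNA gene 1600010M07Rik (chr7:109998376-110151202, minus strand) was at 5.33, 11.1 and 11.5 CPM in controls, at 3.26 and 3.51 CPM in DM-22 and at 3.23 and 3.22 CPM in DM+SGLT2i kidneys. All 4 diabetic libraries lay close together, and the log2 fold change was -1.29 (SE 0.27) with a gap of 0.54. Without control replicate 2 it was -1.63, and this gene then passed limma with an adjusted p of 0.0448. Whether reads were counted by strand is not given in the sources used here, so its reads may include those of an overlapping gene.

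Control replicate 2 sat between the other controls and the diabetic libraries in several of these genes. Ppic, a peptidyl-prolyl isomerase of the secretory pathway, was at 36.4, 99.2 and 80.05 CPM in controls, at 33.0 and 19.0 CPM in DM-22 and at 31.9 and 29.7 CPM in DM+SGLT2i kidneys (log2 fold change -1.24, SE 0.35, and -1.66 without control replicate 2). Gm853 was at 29.3, 54.4 and 49.1 CPM in controls, at 21.9 and 24.1 CPM in DM-22 and at 12.6 and 19.1 CPM in DM+SGLT2i kidneys (-1.16, SE 0.28). Further lower genes with small p were Map3k14, the kinase NIK of noncanonical NF-kappa B signaling (-0.64, SE 0.19), the tetraspanin Tspan5 (-0.46, SE 0.12), the noncoding genes 1110038B12Rik (-0.62, SE 0.17) and Mir6236 (-0.63, SE 0.18) and the zinc finger genes Zfp760 (-0.63, SE 0.19) and Zfp960 (-0.40, SE 0.12). Mir6236 was counted in a library of long RNA, and these reads do not measure a mature miRNA.

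Of 22 tested immediate early genes, 4 separated, all lower (18.2%, beside 1.38% of all genes), and 1 control was far above the rest. Ccn1 (Cyr61), a secreted matrix protein and target of YAP, was at 49.4, 66.3 and 527 CPM in controls, at 21.0 and 33.5 CPM in DM-22 and at 21.8 and 25.996 CPM in DM+SGLT2i kidneys. Its gap of 0.55 was set by control replicate 2 and not by the high control replicate 9. The log2 fold change was -2.24 (SE 0.73), and -1.17 without control replicate 9, for the gene at chr3:145646976-145649981 on the minus strand. Ier3, a regulator of cell survival, was at 43.7, 52.99 and 123 CPM in controls, at 19.5 and 29.3 CPM in DM-22 and at 27.6 and 38.7 CPM in DM+SGLT2i kidneys (-1.22, SE 0.37, and -0.77 without control replicate 9). Jun, a subunit of the AP-1 transcription factor, was at 49.4, 65.5 and 563 CPM in controls, at 44.0 and 36.4 CPM in DM-22 and at 36.3 and 41.4 CPM in DM+SGLT2i kidneys (-1.62, SE 0.75, and -0.52 without control replicate 9). Fos, the partner of Jun, was at 5.02, 5.43 and 331 CPM in controls, at 4.09 and 0.740 CPM in DM-22 and at 2.09 and 1.75 CPM in DM+SGLT2i kidneys (-3.20, SE 1.36, and -1.25 without control replicate 9). The median of the 22 was -1.11 with all controls and -0.15 without control replicate 9, while 4 genes still separated lower and 1 higher. Egr1, at 33.5, 33.7 and 1166 CPM in controls, overlapped because DM-22 replicate 1 was at 80.6 CPM.

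**Figure D4:**
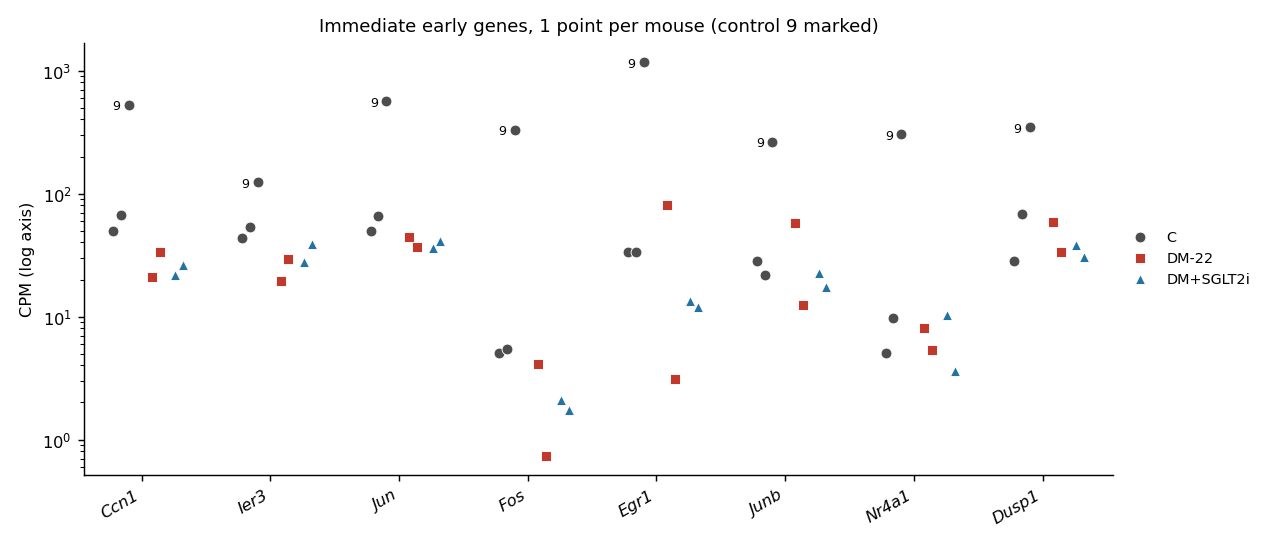
Each point is the CPM of 1 mouse on a log axis for 8 immediate early genes, with circles for controls, squares for DM-22 and triangles for DM+SGLT2i mice, and control replicate 9 marked. Control replicate 9 is the highest library for every gene shown, and only Ccn1, Ier3, Jun and Fos have all 4 diabetic mice below all 3 controls.

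Of the 52 gene lists, 12 held at least 1 separating gene and 40 held none. In all lists, 24 of 1055 tested genes separated, higher or lower. That was a smaller share than the 376 of all 13976 genes. Mdm2, the ubiquitin ligase that degrades p53, and Sesn2, a stress-induced inhibitor of mTORC1, were the separating members of 39 tested p53 targets, both higher. That was 5.13% of the list, beside 1.31% of all genes. Mdm2 was at 41.2, 37.5 and 39.1 CPM in controls, at 49.3 and 42.5 CPM in DM-22 and at 59.3 and 47.3 CPM in DM+SGLT2i kidneys (log2 fold change 0.32, SE 0.13), and Sesn2 had a log2 fold change of 0.36 (SE 0.22). Both gaps were 0.04 to 0.05, within 2 counting errors, and closed under scaling by library totals alone. Tsc2, the brake on mTORC1 in insulin signaling, was at 115, 136 and 119 CPM in controls, at 145 and 154 CPM in DM-22 and at 154 and 148 CPM in DM+SGLT2i kidneys (0.29, SE 0.11).

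The remaining separating list members were the branched-chain acyl-CoA dehydrogenase Acadsb (0.29, SE 0.15) and the ubiquitin ligase Syvn1 of the endoplasmic reticulum (0.19, SE 0.11), both higher. Acadsb, like Fyco1, no longer separated when library totals alone were used for scaling. The lysine pathway enzyme Phykpl (-0.29, SE 0.12), the lipoprotein receptor Vldlr (-0.35, SE 0.12) and the Y-linked translation factor Eif2s3y (-0.46, SE 0.14) were lower. Glucose transporters, glycolysis and gluconeogenesis, cholesterol synthesis, fatty acid synthesis, oxidative phosphorylation, interferon-stimulated genes, macrophage, tubular injury, fibroblast and matrix, and proximal tubule lists were among the 40 with no separating gene. Oxidative phosphorylation genes had a log2 fold change above 0 for 68 of 69 members, with a median of 0.20. Their summed level nevertheless overlapped, at 20834 to 28640 CPM in controls and 20455 to 30079 CPM in diabetic libraries, and DM+SGLT2i replicate 1 was the lowest of the 7. The 30 tested nuclear-retained RNAs and splicing regulators had a median of -0.75 with none separating. The summed level of the list was 3891 CPM in control replicate 2, 6434 and 8079 CPM in control replicates 8 and 9 and 2880 to 4029 CPM in diabetic libraries. Once control replicate 2 was left out, 26 of the 30 separated lower, beside 20.8% of all genes.

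Cdkn1a, Phlda3, Sugct, Havcr1 and Dnmt1 overlapped between diabetic and control kidneys. Cdkn1a (p21), the cell cycle inhibitor, was at 72.7, 4.63 and 5.36 CPM in controls, at 52.6 and 123 CPM in DM-22 and at 78.6 and 77.3 CPM in DM+SGLT2i kidneys. Control replicate 2 lay inside the diabetic range, and the log2 fold change was 2.62 (SE 0.87), with no call by limma. Without this control it was 3.86, with an adjusted p of 0.0290 by limma. Phlda3, a p53 target that restrains Akt, was at 31.6, 5.18 and 4.81 CPM in controls and between 24.2 and 26.99 CPM in diabetic kidneys, so that control replicate 2 was the highest of all libraries (log2 fold change 1.42, SE 0.58, and 2.26 without this control, adjusted p by limma 0.00361). Cdkn1a, Phlda3 and 1600010M07Rik were the 3 genes called without control replicate 2. Sugct, a mitochondrial coenzyme A transferase, was at 31.7, 138 and 146 CPM in controls and between 38.5 and 54.3 CPM in diabetic kidneys. Havcr1 (KIM-1), the tubular injury marker, was at 29.5, 1.98 and 1.84 CPM in controls and between 2.17 and 16.9 CPM in diabetic kidneys, and Dnmt1, the maintenance DNA methyltransferase, was at 24.7 to 30.1 CPM in controls and 22.8 to 32.8 CPM in diabetic kidneys.

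**Figure D5:**
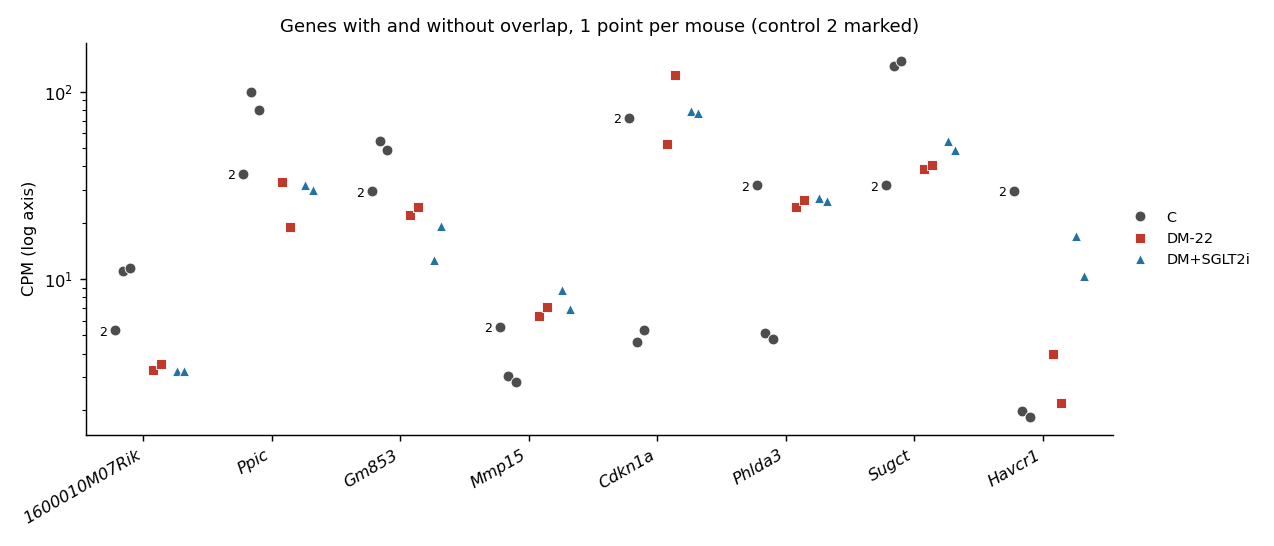
Each point is the CPM of 1 mouse on a log axis, with circles for controls, squares for DM-22 and triangles for DM+SGLT2i mice, and control replicate 2 marked. In the 4 genes on the left control replicate 2 stays on the side of the other controls, and in Cdkn1a, Phlda3, Sugct and Havcr1 on the right it lies within or beyond the diabetic libraries.

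Functions of the separating genes were also counted by annotation terms of the deposited table, chosen after the values were seen. List members were not left out, such as Mdm2 and Syvn1 for ubiquitin-dependent protein catabolism and Arntl and Dbp for transcription regulation. The lower genes of transcription regulation include Zfp genes that are counted again below, so these counts are not independent. Among all 13309 tested genes with an annotation, 1.34% separated higher and 1.32% lower. Of 108 tested genes of DNA replication, 1 separated higher (0.926%) and 8 lower (7.41%), among them Orc6, a subunit of the origin recognition complex. It was at 6.87, 6.67 and 6.58 CPM in controls, at 5.33 and 4.39 CPM in DM-22 and at 5.71 and 5.06 CPM in DM+SGLT2i kidneys. The gaps of all 8 lower genes were under 2 counting errors, and the median log2 fold change of the 108 genes was -0.03. Of 33 tested proliferation genes, 0 separated, which a list of this size may do at the shares of all genes. A log2 fold change above 0 was found for 27 of the 33, and the median was 0.19. The counts of the DNA replication genes were 0 and 7 and 1 and 8 under the other scalings. Without control replicate 2 they were 20 (18.5%) and 31 (28.7%), beside 15.1% and 20.8% of all genes. Of 235 genes of ubiquitin-dependent protein catabolism, 11 separated higher (4.68%) and 1 lower (0.426%). With control replicate 2 left out, however, the counts were 23 (9.79%) and 67 (28.5%), so the higher share was below that of all genes. Of 947 genes of DNA-templated transcription regulation, 15 separated higher (1.58%) and 37 lower (3.91%). The counts were 7 and 44 with library totals. In the absence of control replicate 2 they were 94 (9.93%) and 289 (30.5%), beside the same 15.1% and 20.8%.

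Of 342 tested genes whose symbols begin with Zfp and a digit, 0 separated higher and 19 lower (5.56%), beside 1.31% and 1.38% of all genes. The family was chosen after the values were seen. Such symbols mostly name zinc finger genes, but the match by symbol also took in Zfp335os. For these genes library totals gave 1 higher and 20 lower, beside 109 and 276 of all genes. With 1 library fewer the counts were 17 higher and 140 lower without control replicate 2, beside 15.1% and 20.8% of all genes. They were 10 and 49 without DM+SGLT2i replicate 1, beside 694 and 616 of all 13976 genes. Without control replicate 9 they were 1 and 29, beside 217 and 256 of all genes. They were up to 8 and 26 without any one of the other libraries, beside up to 448 and 419 of all genes. The log2 fold changes of the 19 were small, from -0.63 for Zfp760 to -0.15. On chromosome 17 lie 7 of the 19, and how many of the 342 tested genes lie there was not counted. Among the 19, only Zfp97, Zfp994 and Zfp960 had gaps larger than 2 counting errors, and the gap of Zfp960, at 0.24, was the widest. Zfp960 was at 19.99, 18.7 and 18.9 CPM in controls, at 14.7 and 13.0 CPM in DM-22 and at 14.1 and 15.8 CPM in DM+SGLT2i kidneys. Such genes are often near-identical copies of each other, so that reads may have been split between members, and their values are uncertain in this respect.

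Treated and untreated diabetic mice were compared over the same genes. Among the 376 separating genes, limma with 3 groups found 0 that differed between DM+SGLT2i and DM-22 kidneys after adjustment (smallest adjusted p over all genes 0.881). At an unadjusted p under 0.05 it counted 4 of the 376 and 547 of all genes tested (3.91%). The 376 genes were chosen by these same diabetic values, which all had to lie on 1 side of the controls. This choice disfavors genes with a large difference between treated and untreated mice, so the low count is not evidence on the drug. The 4 were Tyw3, Gm12185, Tmprss4 and Abcc4, and they are named here after their values were seen. Tyw3, lower in diabetic mice, was higher in DM+SGLT2i than in DM-22 kidneys by 0.60 (95% interval 0.18 to 1.02), which places the treated mice between the untreated and the controls. Abcc4, higher in diabetic mice, was higher still with the drug, by 0.73 (95% interval 0.06 to 1.40). For the widely separated genes the difference and its 95% interval were -0.72 (-1.94 to 0.50) for Arntl, 0.09 (-0.68 to 0.87) for Ndrg1 and -0.11 (-1.06 to 0.84) for Acnat2. They were 0.58 (-0.38 to 1.55) for Dbp, -0.15 (-2.66 to 2.35) for Ccn1 and -0.06 (-0.95 to 0.83) for 1600010M07Rik. With 2 mice in each group these intervals do not show that treated and untreated kidneys were alike.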

How the data were processed

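RNA of 7 kidneys was sequenced from polyA-selected, strand-specific libraries, 1 per mouse. Per the submitters' processing notes, bcl2fastq, FastQC, Trim Galore, STAR, edgeR and the build mm10 were used. Versions and roles are not given in the sources used here. The authors deposited log2 values of TMM-normalized CPM for 17537 genes, with a floor of -4.66. The logarithm was undone and the constant behind the floor subtracted, and 100% of the resulting CPM corresponded to whole reads (tolerance 0.001 reads).

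A gene was kept when 2 or more libraries reached 1 CPM. Tests used limma 3.58.1 (R 4.3.3) on log2(CPM + 0.5), two-sided, with Benjamini-Hochberg adjustment and a threshold of 0.05. The code of the test was tried on simulated counts with the same relative spread for every gene and no deviating library. That check does not bear on how the test performs with control replicate 2. Because the file holds normalized log2 values, the fit was on log values and not on counts. The replicate numbers name mice, and nothing states further replication, so that p-values measure the spread between these mice. Counting errors take each read as independent. Python 3.11.15, numpy 2.4.6, pandas 2.3.3 and matplotlib 3.10.9 were used. All 17537 gene identifiers matched GENCODE M21 (GRCm38, the same assembly as mm10).

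The comparison, gene lists and promoter letters were chosen with earlier results of these data known. Named genes were the 12 separating genes with the smallest p and the 8 with the largest gap in each direction, separating list members, genes on both sides of the gap threshold, kidney markers, Y-linked genes and 5 further genes (Cdkn1a, Phlda3, Sugct, Dnmt1 and Havcr1). Not all are printed. Alternatives covered the pseudocount, the filter, the scaling, the fit and each library left out.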

Additional observations from a re-analysis of the deposited data

Results flagged for a closer look

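In groups of 4 libraries, 1 library was set apart from the 3 others for 1 of 48 genes examined. In 1600010M07Rik, DM-22 replicate 2 was the highest of the 4 diabetic libraries, at 3.51 CPM against 3.22 to 3.26 CPM in the 3 others. Its distance from the nearest of them was 0.8545 of the whole range, above Dixon's critical value at the 95% level for 4 samples. Chance alone sets apart about 1 in 20 such groups, and the library remained below every control.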

How the results depend on the processing

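No paired analysis was possible because the controls share only replicate number 2 with the diabetic groups. For DM+SGLT2i against DM-22, deviations of same-numbered libraries had a correlation of -0.04 over 2 pairs, and the fit with a replicate block called 0 separating genes after adjustment, as without it, and 5 instead of 4 unadjusted.

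Adjusted calls by limma stayed at 0 under every alternative other than leaving out libraries, which gave 0 to 2 genes higher and 0 to 1 lower, the calls coming only without control replicate 2. Leaving out 1 library asks fewer libraries to be apart and gave 217 to 2106 separating genes higher, 256 to 2907 lower, 3 to 226 with a gap of 0.5 higher and 3 to 230 lower, the highest counts without control replicate 2. Scaling by library totals gave 109 higher and 276 lower, so that 28.3% were higher, against 48.7% in the comparison described and 52.8% with median-of-ratios scaling (200 and 179), and 208 of the 376 genes separated under both TMM and totals. Without a filter on low values, 308 genes separated lower. Of 768 values of 48 named genes, 759 kept direction and side of the threshold. With 1 library left out, the log2 fold change of Dnmt1 ran from -0.15 to 0.0231 (above 0 without control replicate 8 or either DM-22 library) and that of Havcr1 from -0.32 to 1.52 (below 0 without control replicate 8, control replicate 9 or DM+SGLT2i replicate 1), neither being called in any of these fits. The cause was not tested. Of 832 list medians, 827 moved by less than the spread between libraries. That spread included control replicate 2, so it is a loose measure for the fits without this library. With it left out, the median went from 0.37 to 0.92 for tubular injury, from 0.24 to 0.92 for macrophage and from -0.10 to -1.14 for androgen-induced genes. Further lists moved as well, such as interferon-stimulated genes from 0.19 to 0.91, MHC genes from 0.14 to 0.72 and proximal tubule from -0.04 to -0.49. Some lists moved little, such as p53 targets from 0.31 to 0.36.

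The lowest library had 46456125 reads, and 1 read was worth at most 0.0231 CPM, so that genes of a few CPM carry the counting errors given for the gaps. With 4 and 3 mice, a single gene cannot reach the threshold in an exact test.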

Other observations

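Some cell type lists were set apart in single libraries without separating the groups. The summed level of 11 adipose tissue genes was 1886 CPM in DM+SGLT2i replicate 1 and between 72.0 and 128.8 CPM in the 6 other libraries. The sum of 13 genes of B and plasma cells was highest in control replicate 9, at 896 CPM, with 67.4 to 400 CPM elsewhere. Urothelium and papilla genes summed to 279.8 CPM in DM+SGLT2i replicate 1 and 167 CPM in control replicate 2, against 15.2 to 56.6 CPM in the 5 other libraries.

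Vipr1, the receptor of vasoactive intestinal peptide, was among the 8 lower genes with the largest gaps although it was at low levels, at 1.63, 1.94 and 1.94 CPM in controls and between 0.774 and 1.27 CPM in diabetic kidneys, with a log2 fold change of -0.60 (SE 0.22). The gap of 0.27 was under 2 counting errors.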
